A study of Mus musculus with 18 samples.

Results

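Arf-B cells were compared with Ctrlv2 control cells on day 8 of a differentiation protocol directed at the pancreatic lineage. Both are lines of ES-E14TG2a, a mouse embryonic stem cell line, and the series title names p19Arf, one of the proteins encoded by Cdkn2a. The genotype given for every library is wild type, and no source used here says how the Arf-B and Ctrlv2 cells were made or whether each is a single clone. All cells compared had received activin A (20 ng/mL) together with Matrigel from day 0, and then retinoic acid (labelled as 5 μM/ml) and FGF10 (10 ng/mL) over days 4 to 8. There were 3 Ctrlv2 and 3 Arf-B libraries at day 8. The same lines at day 0, untreated, and a further line named Arf-C on both days, with the same treatment by day 8, served for further comparisons. All 18 libraries entered the same fit, so they also shape the spread behind every test. The genes compared are those with at least 0.5 FPKM, fragments normalised to gene length and library size, in at least 3 of the 6 day 8 libraries. That was 15075 of the 54532 genes in the table. Of these, 389 start in 3 chromosome segments that are described apart from the other 14686: chromosome 2 from 115000000 to 145000000, chromosome 14 from 60000000 to 80000000 and chromosome 4 from 100000000 to 105000000 (mm10). Counts over all genes and over gene lists still include members of the segments.

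Reads on genes ranged from 10432590 to 14709983 in the Ctrlv2 libraries and from 17103466 to 22222425 in the Arf-B libraries. These ranges do not overlap, so depth and line cannot be told apart by design. On a gene of 1 kilobase 3 reads equal 0.195 to 0.282 FPKM in Ctrlv2 and 0.124 to 0.161 FPKM in Arf-B. The inclusion rule bears on weak genes: 213 members reached 0.5 FPKM in all 3 Arf-B and no Ctrlv2 library, 123 did so in all 3 Ctrlv2 and no Arf-B library, and 13020 did so in all 6. Members that entered through the line where they are high had to differ: 194 of the 213 were called higher and 0 lower, and 112 of the 123 lower and 0 higher. They are part of the counts that follow, those of gene lists included. The third-highest value decides membership; it lay between 0.5 and 0.55 FPKM for 254 members and between 0.45 and 0.5 FPKM for 287 genes left out. Nothing states that the replicates are separate cultures, so p-values measure only the spread between these samples. In RNA from a whole culture, fewer cells of a type and less RNA per cell cannot be told apart.

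Embryonic stem cells hold a self-renewing state through Nanog, Pou5f1 and Esrrb, and silence these genes as they commit to a germ layer. Activin signals through Smad proteins and moves the cells towards endoderm, and retinoic acid then patterns the gut tube along its length, in part by switching on Hox genes. Endoderm in such cultures can be definitive, which forms the gut and pancreas, or extraembryonic, of which the parietal kind lays down a thick basement membrane of laminin and collagen IV. The Cdkn2a locus encodes p16Ink4a, which inhibits the cyclin D kinases, and p19Arf, which binds Mdm2 and thereby relieves p53 of degradation.

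Of the 15075 genes, 2641 were higher in Arf-B (17.5% of those compared) and 2855 were lower (18.9%) at an adjusted p below 0.05 in limma's fit, so that 36.5% were called in either direction. Changes of at least 2-fold were fewer, at 201 higher (1.33%) and 276 lower (1.83%). The median difference over all genes was 0.001 on the log2(FPKM + 1) scale, with quartiles of -0.21 and 0.20. All differences below are Arf-B minus Ctrlv2 on that scale, which understates the change of genes with low values. Genes named for a large change had to have the 3 libraries of each line apart, so their separation describes them and tests nothing. Of all members, 24.6% were apart with Arf-B higher and 25.6% with Arf-B lower. The share of calls that were higher depended on the scaling: it was 48.1% as deposited and 68.4% (4071 higher and 1879 lower) when each library was set to the same FPKM sum, which moved the median gene by 0.1.

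**Figure D1:**
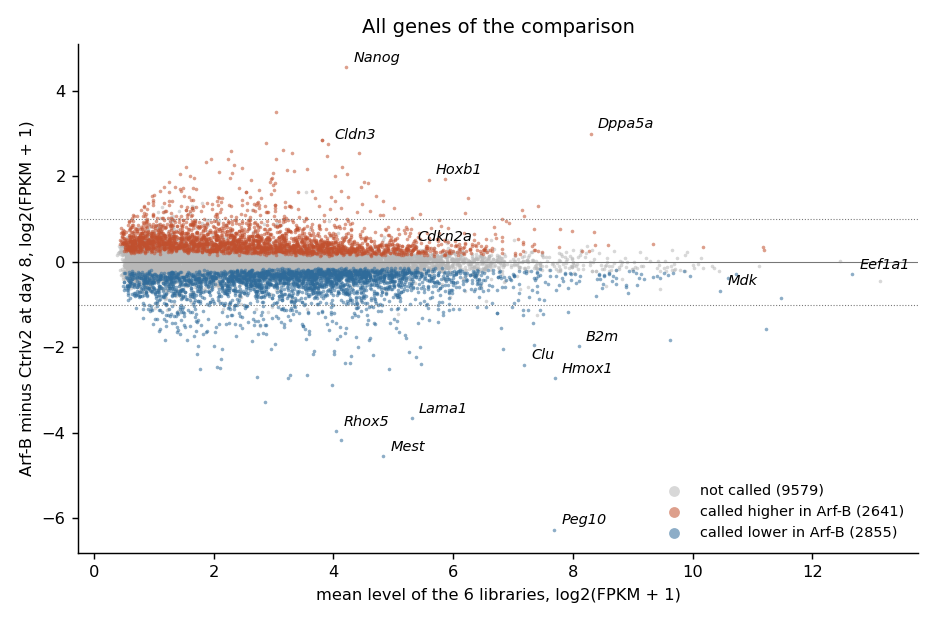
Each point is 1 of the 15075 genes, with its mean log2(FPKM + 1) over the 6 libraries on the horizontal axis and the Arf-B minus Ctrlv2 difference at day 8 on the vertical axis, dotted lines marking a 2-fold change. Nanog stands highest at 4.55 and Peg10 lowest at -6.26, while most abundant genes lie close to 0.

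Genes of the naive pluripotent state were higher in Arf-B cells on day 8. Of the list of 15 naive state genes, 14 were compared; 12 were higher and none was lower, with a median of 1.39 against 0.001 over all genes. Nanog, a homeodomain factor of the undifferentiated state, stood at 0.694, 0 and 0.916 FPKM in the Ctrlv2 libraries and at 27.6, 30.1 and 46 in the Arf-B libraries. These values rest on 24, 0 and 26 reads in Ctrlv2 and 1500, 1253 and 2330 in Arf-B. The lines did not overlap, and the difference was 4.55 (SE 0.28, adjusted p = 2.04e-08), the largest rise on this scale. Pou5f1, which encodes Oct4, was at 2.88, 3.73 and 3.97 FPKM in Ctrlv2 and 20.2, 25.6 and 26.3 in Arf-B (log2 difference 2.46, SE 0.17, adjusted p = 5.27e-08). Esrrb, a nuclear receptor of the naive network, was at 2.86, 2.32 and 3.13 against 13, 14.8 and 19 FPKM. Every Arf-B library exceeded every Ctrlv2 library for both genes. Klf2, a Krüppel-like factor (2.02), Nr0b1, an orphan nuclear receptor (1.97), and Zfp42, a zinc-finger marker of naive cells (1.53), followed. Tbx3 (0.11, adjusted p = 0.568) and Klf5 (0.073, adjusted p = 0.692) were the 2 members that did not pass the test.

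Nanog and Pou5f1 in Arf-B were still far below their levels of day 0. Nanog was at 262 ± 12.4 FPKM in Ctrlv2 and 267 ± 58 in Arf-B on day 0 (SD, n = 3), a difference of 0.0043 (adjusted p = 0.999). Its difference on day 8 exceeded that on day 0 by 4.55 (SE 0.40, adjusted p = 1.23e-06). Pou5f1 was at 657 ± 46 and 494 ± 26.3 FPKM on day 0, a difference of -0.41 (adjusted p = 0.0759). The median day 0 difference of the 14 naive state genes was -0.06. The 5 pluripotency markers summed to 20.7 to 26.3 FPKM in the Ctrlv2 and 101 to 146 FPKM in the Arf-B libraries at day 8.

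**Figure D2:**
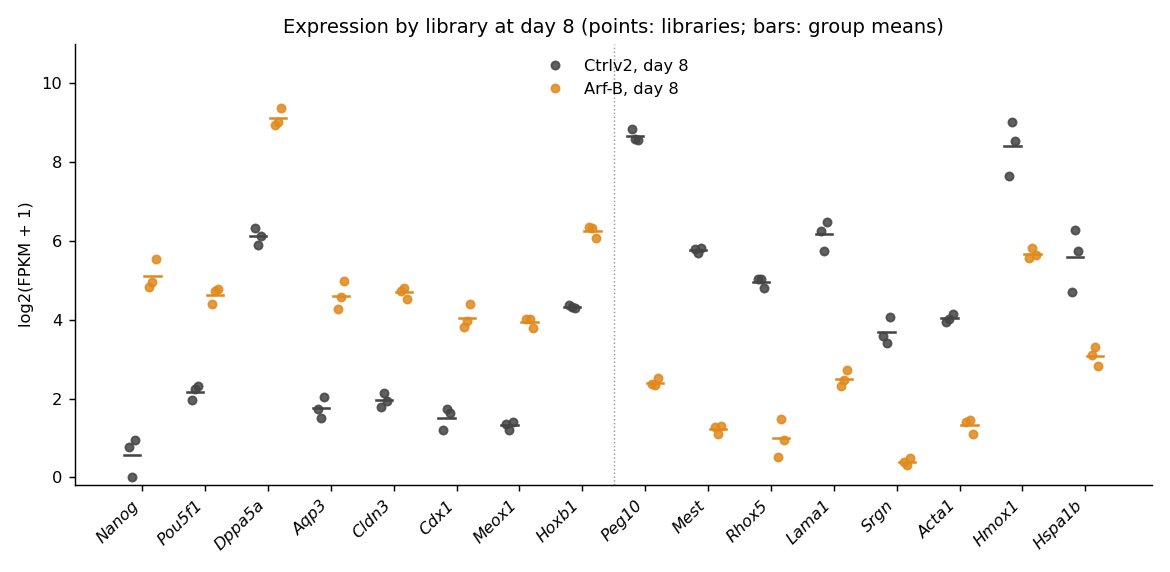
Expression of 16 genes in each day 8 library, as log2(FPKM + 1), with grey points for the 3 Ctrlv2 libraries, orange points for the 3 Arf-B libraries and bars for the group means. Genes left of the dotted line were higher and genes right of it lower in Arf-B, with no overlap between the lines in any of them.

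Among 15 other genes of stem cells, 9 were higher and 1 was lower (median 0.46). Dppa5a, an RNA-binding protein of early embryos, was at 79.8, 58.6 and 68.5 FPKM in Ctrlv2 and 492, 521 and 659 in Arf-B (log2 difference 3.0, SE 0.16, adjusted p = 3.25e-09). Even the lowest Arf-B library was well above the highest Ctrlv2 library. Utf1, a chromatin-associated factor (1.85), Gdf3, a ligand of the TGF-beta family (1.66), and Sox2, the partner factor of Oct4 (1.02), were also higher. The exception was Dnmt3l, a cofactor of the de novo DNA methyltransferases, at 79.3, 82.5 and 78.3 against 38.7, 38 and 42.2 FPKM (log2 difference -1.0, adjusted p = 4.33e-08). Dnmt3b, one of the enzymes that Dnmt3l assists, was higher at 21.4, 20.9 and 20.4 against 14.2, 13.9 and 13 FPKM (0.57). Fgf4, the autocrine ligand that primes stem cells for differentiation and a member through Arf-B alone, was at 0.304, 0 and 0.198 in Ctrlv2 and 2.63, 2.69 and 3.48 FPKM in Arf-B, and Etv5, a transcriptional target of Fgf signalling, was higher by 1.28. Of 17 genes of the Fgf pathway 7 were higher and 6 lower. The higher count was 4 without Arf-B replicate 1 and at most 5 without any other of the 6 libraries. Genes of the Lif pathway, which sustains naive cells through Stat3, went mostly the other way. Of 12, 8 were lower, led by the receptor gene Lifr at 10.2, 7.54 and 8.45 against 3.21, 3.02 and 3 FPKM (-1.25) and including the feedback inhibitor gene Socs3 (-0.85). The 1 that was higher was Klf4 (0.73), and without Ctrlv2 replicate 3 a further gene was called higher. Among 11 Wnt targets 6 were higher and 1 lower (2 lower without Ctrlv2 replicate 2), with the feedback genes Axin2 (1.16) and Notum (1.0) in front.

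Genes of epithelial junctions were higher in Arf-B, while simple keratins were lower. Of 31 measured epithelial genes 26 were higher and 3 lower (median 0.68). On day 0 the same list had 15 higher and 9 lower (median 0.20). Aqp3, a water and glycerol channel, was at 2.34, 1.85 and 3.11 FPKM in Ctrlv2 and 18.2, 22.7 and 30.4 in Arf-B (2.84, SE 0.20, adjusted p = 5.86e-08). Cldn3, a tight junction claudin, was at 2.42, 3.44 and 2.82 against 25.7, 27.1 and 22.2 FPKM (2.74, SE 0.13, adjusted p = 5.57e-10). The lines did not overlap for either gene. Esrp1, which directs epithelial splicing, was at 0.761, 0.971 and 0.99 against 7.25, 6.95 and 6.91 FPKM, and its difference was much the same on day 0 (1.96) as on day 8 (2.08). Epcam, an epithelial adhesion molecule, stood at 25.9, 21.9 and 21.3 in Ctrlv2 and 91.3, 95.7 and 85.9 FPKM in Arf-B, with a difference of 1.94 on day 8 and 0.22 on day 0. Cdh1, the gene of E-cadherin, chosen here after its values were seen, went from 43.8, 45.5 and 46.8 to 104, 101 and 96.3 FPKM (1.13). The 3 lower members were the keratins Krt8 (-1.54), Krt18 (-1.12) and Krt19 (-0.62), also picked after the fact. Krt8, a filament protein of simple epithelia and of extraembryonic endoderm, was at 149.5, 170.2 and 175 in Ctrlv2 and 63.5, 62.8 and 43.6 FPKM in Arf-B. Krt8 and Krt18 have processed copies in the genome with which reads may be shared.

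Most genes of primitive and parietal endoderm were lower in Arf-B. Of 20 measured genes of primitive and parietal endoderm, 17 were lower and 1 was higher, with a median of -1.13 on day 8 and of -0.10 on day 0. Of the 17 lower genes, 2 lie in the chromosome segments. Lama1, the laminin alpha chain of embryonic basement membranes, was at 75.7, 52.8 and 88.9 FPKM in Ctrlv2 and 3.99, 4.54 and 5.59 in Arf-B. The lowest Ctrlv2 library was several times the highest Arf-B library, and the difference was -3.66 (SE 0.17, adjusted p = 7.02e-10). Lama1 was already lower on day 0 (-1.37, adjusted p = 1.49e-05), and the difference on day 8 departed from that by -2.29 (adjusted p = 5.72e-06). Srgn, which encodes the proteoglycan serglycin, was at 10.9, 9.6 and 15.8 against 0.3, 0.245 and 0.403 FPKM (-3.29, SE 0.15, adjusted p = 4e-10). Srgn is a member through Ctrlv2 alone. The neighbouring collagen IV genes moved alike: Col4a1 was at 74.8, 60.3 and 83.8 against 12.3, 12.3 and 14.2 FPKM (-2.40), and Col4a2 fell by a similar step (-2.10). Sparc, a secreted protein abundant in parietal endoderm, was at 192, 157 and 196 in Ctrlv2 and 45, 43.3 and 41 FPKM in Arf-B (-2.05). None of these 3 genes overlapped between lines. Basement membrane genes as a whole moved in both directions: of 19 measured laminin, collagen IV and related genes 8 were lower and 6 higher (median -0.17, and -0.37 on day 0).

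The transcription factor genes of extraembryonic endoderm were lower too. Gata6 was at 6.84, 5.54 and 7.04 against 2.01, 2.59 and 2.22 FPKM (-1.19, adjusted p = 3.49e-08), with no difference called on day 0 (-0.13, adjusted p = 0.256). Gata4 lies in the chromosome 14 segment, where most genes were lower, and is given there. Pth1r, the parathyroid hormone receptor of parietal cells (-1.01), and Lamb1, the beta chain that pairs with Lama1 (-0.86), were lower. Nid2, a nidogen that links laminin to collagen IV, was the 1 higher member (0.35, adjusted p = 0.00473) and is named because it is the exception. The 6 marker genes of parietal and primitive endoderm summed to 331 to 444 FPKM in Ctrlv2 and 95.1 to 98.4 FPKM in Arf-B. Thbd, one of these markers, stayed below 0.5 FPKM in all 6 libraries. Fibrillar and other matrix genes had 14 of 23 lower and 3 higher (median -0.44), and 2 of the 14 lie in the segments.

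Most contractile genes and many targets of Yap and serum response factor were lower. Of 17 measured smooth and striated muscle genes 14 were lower and 1 higher (median -0.73); the higher one was lost without Arf-B replicate 1 or Ctrlv2 replicate 2, which left 0. Acta1, skeletal alpha-actin, was at 14.4, 15.1 and 16.8 FPKM in Ctrlv2 and 1.64, 1.75 and 1.15 in Arf-B (-2.71, SE 0.11, adjusted p = 8.9e-11). Acta2, smooth muscle alpha-actin, was at 13.2, 13 and 21 against 1.76, 1.3 and 1.81 FPKM (-2.65, SE 0.15, adjusted p = 3.79e-09). Both actin genes were separated without overlap, and neither differed by the test on day 0 (0.10 and -0.027). The regulatory light chain gene Myl9 (-1.68) and the actin-binding calponin gene Cnn1 (-1.62) were also lower. Of 18 measured targets of Yap and serum response factor, which share actin dynamics as an upstream input, 9 were lower and 1 higher (median -0.33). F3, the tissue factor gene, was at 32.2, 28.5 and 38.4 against 7.18, 7.75 and 7.65 FPKM (-1.99, adjusted p = 1.31e-08). Cyr61, a matricellular protein gene widely used as a Yap readout, was at 192, 179 and 233 against 90.8, 91.7 and 71.1 FPKM (-1.24). Ankrd1, an ankyrin repeat gene of muscle, was lower from smaller values (-1.0). The 4 cardiac and muscle markers summed to 32.0 to 35.8 FPKM in Ctrlv2 and 10.6 to 10.9 FPKM in Arf-B.

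Immediate early genes, which growth factors induce within minutes, had 12 of 16 measured members lower and 0 higher (median -0.62, and -0.49 on day 0). Egr1, a zinc-finger factor, was at 29.9, 37.5 and 53.8 FPKM in Ctrlv2 and 8.62, 10.2 and 5.59 in Arf-B (-2.17, SE 0.21, adjusted p = 1.94e-06). Fos (-1.48) and Junb (-0.94), subunits of AP-1, and Dusp1, a phosphatase gene that limits MAP kinase signalling (-0.85), followed. These 4 genes were lower on day 0 as well, by differences from -1.58 for Egr1 to -0.57 for Dusp1. Srf itself, named after its values were seen, was at 21.1, 17.9 and 23.2 against 13.9, 14 and 14.1 FPKM (-0.53, adjusted p = 0.000908).

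Serum response factor binds the CArG box, and the promoters of Acta1 and Srf are printed because they hold it beside these differences. Each is the 250 bases before the annotated start, 5′ to 3′ on the gene's strand, from RefSeq on GRCm38.p6, with CArG boxes in capitals. Acta1 lies on the minus strand at chr8:123894776-123895025 and has 1 match, and Srf lies on the minus strand at chr17:46556163-46556412 and has 2. Over all 32851 promoters of that length, 482 (1.47%) hold a match on either strand. A match describes letters only and is not a measured binding site.
Acta1: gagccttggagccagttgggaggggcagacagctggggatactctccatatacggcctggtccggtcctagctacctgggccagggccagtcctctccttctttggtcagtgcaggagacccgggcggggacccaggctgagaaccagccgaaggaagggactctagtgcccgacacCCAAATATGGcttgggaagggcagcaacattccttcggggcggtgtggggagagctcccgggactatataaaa
Srf: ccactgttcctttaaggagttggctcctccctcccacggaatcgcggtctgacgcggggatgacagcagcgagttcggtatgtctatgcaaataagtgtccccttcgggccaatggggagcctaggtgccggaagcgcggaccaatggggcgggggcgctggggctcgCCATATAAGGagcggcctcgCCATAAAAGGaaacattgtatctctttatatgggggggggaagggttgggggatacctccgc

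Most measured genes of the Nrf2 response were lower in Arf-B, and so were many heat shock genes. Of 17 measured Nrf2 and heme genes 11 were lower and 1 higher (median -0.35). Hmox1, heme oxygenase, was at 199, 519.7 and 371 FPKM in Ctrlv2 and 46.5, 55.9 and 48.6 in Arf-B. Ctrlv2 varied widely, with replicate 2 highest, yet its lowest library was above every Arf-B library, and the difference was -2.73 (SE 0.25, adjusted p = 1.05e-06). Leaving out each of the 6 libraries in turn gave between -3.10 and -2.42. On day 0 Hmox1 was at 35.7 ± 3.22 and 43.9 ± 1.77 FPKM (0.29, adjusted p = 0.396). Srxn1, sulfiredoxin, was at 32.6, 40.1 and 38.1 against 12.5, 13.2 and 12.8 FPKM (-1.45, adjusted p = 4.91e-10). The autophagy receptor gene Sqstm1 (-1.12) and the glutathione transferase gene Gstm1 (-1.08) were lower too. The 1 higher member was another glutathione transferase gene, Gsta4 (0.52), named as the exception.

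A list of 24 heat shock factors, chaperones and co-chaperones was put together after Hspa1b had been seen among the largest changes. In it 14 were lower and 1 higher (median -0.28), so its direction is a description. The lower count was 11 with libraries set to the same sum and 12 with a pseudocount of 0.1 or with thinned reads. Leaving out each library in turn gave 11 to 15. Hspa1b, an inducible Hsp70, was at 25.2, 76.7 and 52.8 FPKM in Ctrlv2 and 7.59, 8.85 and 6.06 in Arf-B (-2.51, SE 0.28, adjusted p = 7.47e-06). Leaving out each library in turn gave differences between -2.94 and -2.16. Its near-identical neighbour Hspa1a (-2.21) may share reads with it, so the split between both genes is uncertain. Hspb8, a small chaperone of protein quality control, was at 25.8, 35 and 27.8 against 4.84, 4.83 and 4.99 FPKM (-2.36, adjusted p = 1.09e-08), and Hsph1, an Hsp110, at 24.7, 41.5 and 34.4 against 14.6, 15.7 and 15.6 FPKM (-1.05). In Ctrlv2 these genes shared an order with Hmox1, replicate 2 being highest and replicate 1 lowest. Hspb1, a small heat shock protein of high level, did not pass the test: it was at 115.1, 169 and 155 in Ctrlv2 and 152, 177 and 184 FPKM in Arf-B (0.23, adjusted p = 0.223), and it was called higher with libraries set to the same sum (0.36, adjusted p = 0.032).

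The promoters of Hspa1b and Hspb1 are printed to set a gene that was lower beside one that was not called, both holding the heat shock factor motif GAANNTTC, shown in capitals. They are again the 250 bases before the start on GRCm38.p6 from RefSeq, with Hspa1b on the minus strand at chr17:34959239-34959488 (1 match) and Hspb1 on the plus strand at chr5:135887669-135887918 (2 matches). The motif reads the same on both strands, and 2199 of the 32851 promoters (6.69%) hold it. Of the 24 listed genes 19 have an entry, and 7 of those hold the motif.
Hspa1b: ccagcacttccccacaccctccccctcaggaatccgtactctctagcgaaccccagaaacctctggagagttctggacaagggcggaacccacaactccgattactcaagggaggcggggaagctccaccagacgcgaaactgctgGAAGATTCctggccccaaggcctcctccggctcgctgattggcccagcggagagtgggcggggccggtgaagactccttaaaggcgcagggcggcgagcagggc
Hspb1: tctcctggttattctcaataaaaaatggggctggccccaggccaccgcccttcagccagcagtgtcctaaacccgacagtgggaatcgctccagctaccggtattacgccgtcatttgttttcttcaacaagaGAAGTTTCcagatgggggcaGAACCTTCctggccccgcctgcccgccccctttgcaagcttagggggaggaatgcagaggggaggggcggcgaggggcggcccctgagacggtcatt

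Most lysosomal genes were lower, and several genes of the endoplasmic reticulum stress response were higher. Of 20 lysosomal genes 14 were lower and 0 higher (median -0.47, and 0.04 on day 0). Ctsa, cathepsin A, was at 71.3, 84.2 and 79 FPKM in Ctrlv2 and 35.6, 35.1 and 31.2 in Arf-B (-1.18, adjusted p = 1.68e-08), whereas on day 0 it had been higher in Arf-B (0.82, adjusted p = 5.79e-07). Ctsl, cathepsin L, was at 195, 220.2 and 209 against 98.8, 94.7 and 92.3 FPKM (-1.12), with a small rise on day 0 (0.34). Gla, alpha-galactosidase, was lower as well (-1.07). Of 14 genes of the unfolded protein response 7 were higher and 1 lower (median 0.34), and the lower call was lost, leaving 0, without Arf-B replicate 1 or 2 or without Ctrlv2 replicate 2 or 3. Creld2, a chaperone induced by misfolded protein, was at 65.6, 62.6 and 94.7 against 120.4, 133 and 132 FPKM (0.80, adjusted p = 0.000356). Manf, a secreted stress factor, rose by the same step (0.80), followed by the chaperone genes Hyou1 (0.57) and Sdf2l1 (0.47). No Arf-B library overlapped a Ctrlv2 library for these 4 genes.

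Hox genes, which give cells their position along the body axis, were mostly higher. Of 29 measured Hox genes 19 were higher and 4 lower (median 0.52, and 0.00 on day 0). Hoxb1, an anterior hindbrain and foregut gene that responds directly to retinoic acid, was at 19.8, 19 and 18.6 FPKM in Ctrlv2 and 80.2, 79.6 and 66.6 in Arf-B (1.92, SE 0.07, adjusted p = 6.66e-11). The lines were far apart and each was tight. The more posterior Hoxc8 (1.36) and Hoxb7 (1.25) rose from lower values. Hoxb13, the last gene of its cluster, was lower at 1.72, 1.51 and 1.22 against 3.91, 4.78 and 3.47 FPKM (-1.02). Hoxb4 (-0.58) and Hoxc5 (-0.67), chosen after their values were seen, were lower as well. Genes of the retinoic acid response moved in both directions, with 9 of 20 higher and 8 lower (median 0.01). With libraries set to the same sum 10 were higher and 4 lower, and with a pseudocount of 0.1 7 were higher and 3 lower. Leaving out each library in turn gave 4 to 7 lower. The lower count was 5 without Arf-B replicate 2, 4 without Arf-B replicate 3 and 5 without Ctrlv2 replicate 1. Stra6, the retinol transporter, was at 6.68, 5.67 and 5.05 against 17.2, 18.8 and 18.1 FPKM (1.49, adjusted p = 1.22e-09). Cyp26a1, the enzyme that degrades retinoic acid, picked after its values were seen, was lower at 405, 399 and 332 against 601, 538 and 558 FPKM (-0.58, adjusted p = 0.000227).

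Cdx1 and Meox1 were among the largest rises. Of 6 measured hindgut and posterior genes 4 were higher and 0 lower (median 0.47), whereas of 14 mesoderm and mesenchyme genes 2 were higher and 7 lower (median -0.25). Cdx1, a caudal homeobox gene of the posterior gut and a retinoic acid and Wnt target, was at 1.3, 2.31 and 2.08 FPKM in Ctrlv2 and 13, 14.6 and 20.1 in Arf-B (2.54, adjusted p = 4.51e-08). Its relative Cdx2, which met the inclusion rule through Arf-B alone, was at 0.201, 0.416 and 0.0349 against 0.894, 0.714 and 0.822 FPKM (0.58). The 2 hindgut markers, Cdx1 and Cdx2, summed to 1.5 to 2.73 FPKM in Ctrlv2 and 13.9 to 20.9 FPKM in Arf-B. Meox1, a homeobox gene of somites, was at 1.54, 1.31 and 1.67 against 15.2, 15.2 and 12.8 FPKM (2.62, SE 0.09, adjusted p = 1.19e-11). Ifitm1, an interferon-inducible membrane protein gene of the primitive streak, was at 6.58, 5.16 and 4.33 against 31.6, 34.9 and 40.6 FPKM (2.54) and was already higher on day 0 (1.10). Upk1a, a uroplakin of surface epithelia, was at 0.456, 0.795 and 1.39 against 12.7, 12 and 10.5 FPKM (2.79). For each of these 4 leading genes the lines were apart, as the naming rule asks.

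Definitive endoderm genes did not move in 1 direction. Of 11 measured, 4 were higher and 3 lower (median -0.14), and 1 of the 3 lies in a chromosome segment. Foxa1, a pioneer factor of endoderm, was at 2.81, 3.65 and 4.42 FPKM in Ctrlv2 and 9.35, 11.2 and 11.1 in Arf-B (1.33, adjusted p = 1.3e-07), while its relative Foxa2 overlapped, at 4.21, 3.02 and 4.5 against 4.75, 3.65 and 4.46 (0.11, adjusted p = 0.525). Sox17, an early factor of definitive and primitive endoderm and a member through Ctrlv2 alone, was lower at 0.259, 0.237 and 0.204 against 1.43, 0.868 and 1.21 FPKM (-0.81). Cxcr4 and Gsc, markers of definitive endoderm, missed the inclusion rule, with means of 0.259 and 0.258 FPKM in Ctrlv2. Prox1, a factor of the foregut, was lower (-0.75).

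Pancreatic transcripts were scarce in both lines on day 8. Only 8 of 25 pancreatic progenitor and islet genes met the inclusion rule; 4 were higher and 0 lower, and without Ctrlv2 replicate 1 a further 2 were called lower. Pdx1, the master regulator of pancreas formation, did not meet it, at 0.137 ± 0.0430 FPKM in Ctrlv2 and 0.506 ± 0.312 in Arf-B (SD, n = 3). Ptf1a, Nkx6-1 and Neurog3, factors of acinar, beta and endocrine progenitor cells, averaged below 0.5 FPKM in both lines, Neurog3 being at 0 in all 3 Ctrlv2 libraries. Sox9, a progenitor factor also active in other tissues, did not differ by the test (-0.089, adjusted p = 0.496). Pax6 (0.97), Mafa (0.85) and Mnx1 (0.61), homeobox and bZIP factors of islets and neurons, and Dlk1, a Notch-like imprinted gene (0.77), were higher, the first 3 at no more than 2.99 FPKM in any library. The 5 progenitor markers summed to 2.01 to 2.66 FPKM in Ctrlv2 and 2.42 to 3.76 FPKM in Arf-B, ranges that overlap. Sox9 was the largest part of that sum in every library. Of the weaker markers, Pdx1, Ptf1a and Neurog3 were each higher in every Arf-B library than in every Ctrlv2 library. Nkx6-1 overlapped, with a lower mean in Arf-B (0.111 against 0.245 FPKM). These weak markers missed the inclusion rule, so their differences were not counted. The 4 neural markers, most of whose sum was Tubb3, summed to 8.96 to 10.2 FPKM in Ctrlv2 and 6.81 to 8.45 FPKM in Arf-B. The wider list of neural progenitors and neurons went the other way, with 7 of 13 measured genes higher and 4 lower (median 0.26) and sums of 44.5 to 48.9 against 53.9 to 60.05 FPKM. Mesenchymal markers summed to 11.9 to 15.2 and 13.5 to 13.6 FPKM. Hbb-bh1 of primitive blood and Ptprc of leukocytes had 0 reads in all 6 libraries, which allows up to 3 reads in each by counting error alone, while Pecam1 of endothelium and stem cells was at 0.364, 0.469 and 0.343 against 1.18, 1.59 and 1.97 FPKM (0.88). Pecam1 is a member through Arf-B alone. Of 8 measured endothelium and blood genes 2 were higher and 4 lower (median -0.26).

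**Figure D3:**
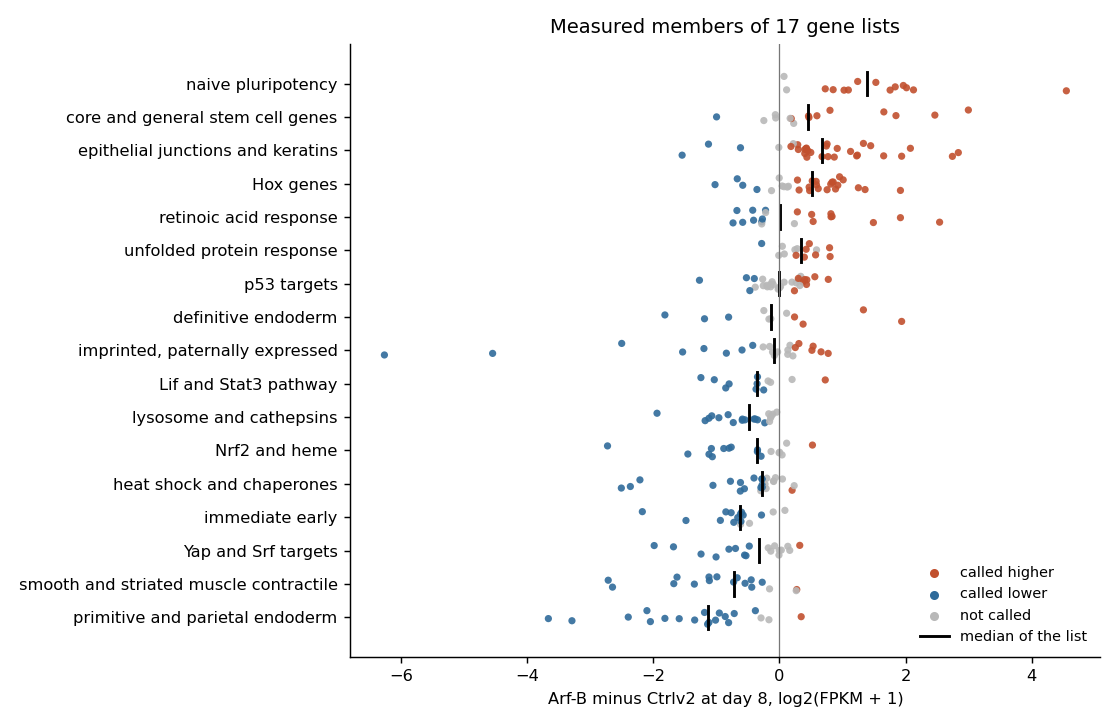
Arf-B minus Ctrlv2 difference at day 8 for each measured member of 17 gene lists, 1 point per gene, coloured by the call, with a black bar for the median of the list. Naive pluripotency has the highest median (1.39) and primitive and parietal endoderm the lowest (-1.13), and some genes appear in more than 1 list.

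Peg10 and Mest, both paternally expressed imprinted genes of chromosome 6, had the largest reductions of all members on the log2(FPKM + 1) scale. Imprinted genes are transcribed from 1 parental copy. Peg10, a retrotransposon-derived gene, shares a promoter region that is methylated on the maternal copy with Sgce, the gene of epsilon-sarcoglycan. Peg10 (chromosome 6, 4747306 to 4760517, mm10) was at 460.0, 382 and 379 FPKM in Ctrlv2 and 4.14, 4.06 and 4.7 in Arf-B. The group means differed 94.8-fold and the log2 difference was -6.26 (SE 0.10, adjusted p = 7.58e-16). Sgce (chromosome 6, 4674350 to 4747207) starts beside it on the other strand and had 801, 533 and 648 reads in Ctrlv2 and 11, 6 and 2 in Arf-B. That equals 4.89, 4.73 and 4.82 against 0.0427, 0.0304 and 0.00834 FPKM, a difference of -2.50 on the log2(FPKM + 1) scale and of -7.60 on the scale of reads in limma's voom fit, where it lay beyond Peg10 (-6.56) and Mest (-5.31). Sgce is a member through Ctrlv2 alone. Mest (chromosome 6, 30723547 to 30748465), a hydrolase-like gene, was at 54.9, 51 and 55.5 against 1.44, 1.15 and 1.45 FPKM, 40-fold between means (-4.55, SE 0.09, adjusted p = 2.23e-14). The lines were far apart in all 3 genes. The reductions were present on day 0, by -3.98 for Peg10, -2.58 for Mest and -0.67 for Sgce. Copg2, whose end overlaps that of Mest on the other strand, was higher at 18.8, 18.4 and 18.8 against 12.7, 12.1 and 13 FPKM (0.53); it was chosen for this overlap after its values were seen, and no source used here says whether the counting used strand.

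Imprinted genes as a class moved in both directions. Of 23 measured paternally expressed genes 6 were higher and 8 lower (median -0.08), the lower ones including Sfmbt2, a polycomb-related gene (-1.53). Of 22 maternally expressed genes 4 were higher and 8 lower (median -0.12). The lower count was 5 without Arf-B replicate 2, Arf-B replicate 3 or Ctrlv2 replicate 3, and at most 6 without any other of the 6 libraries. With libraries set to the same sum 4 were higher and 3 lower. H19, a long non-coding RNA, was at 16.8, 21.2 and 13.8 against 4.07, 4.64 and 3.71 FPKM (-1.81, adjusted p = 3.17e-08), and Phlda2, a growth-restricting gene, was also lower (-1.29). The Mest promoter is printed because its imprint is carried by methylation of CG pairs, which are in capitals. It is the second of 3 RefSeq entries for the gene, the 250 bases before that start at chr6:30737800-30738049 on the plus strand of GRCm38.p6. It holds 14 CG pairs, against a median of 6 over the 32851 promoters of that length, and methylation was not measured here.
Mest: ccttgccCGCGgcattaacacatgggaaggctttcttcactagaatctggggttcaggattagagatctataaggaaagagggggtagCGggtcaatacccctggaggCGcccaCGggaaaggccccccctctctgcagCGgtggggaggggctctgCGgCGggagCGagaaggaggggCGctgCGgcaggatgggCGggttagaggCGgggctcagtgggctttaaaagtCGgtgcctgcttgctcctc

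Of 25 measured germline genes 12 were lower and 4 higher (median -0.27, and -0.77 on day 0). The higher count was 2 without Arf-B replicate 3, Ctrlv2 replicate 1 or Ctrlv2 replicate 2. Rhox5, an X-linked homeobox gene of the testis and of extraembryonic tissue, was at 31.7, 31.6 and 26.9 FPKM in Ctrlv2 and 0.438, 1.78 and 0.939 in Arf-B (-3.97, SE 0.19, adjusted p = 7.76e-10). Its difference on day 0 was larger still (-5.73). Fmr1nb, a cancer-testis gene on the X chromosome, was at 21.6, 18.2 and 18.4 against 1.72, 2.35 and 2.79 FPKM (-2.64). Both X-linked genes were apart between lines, which their selection required. The neighbouring genes Ooep and Khdc3, both of the oocyte's subcortical maternal complex, moved in opposite directions. Ooep was at 0.273, 0.617 and 0.296 against 6.31, 6.87 and 9.04 FPKM (2.59), and Khdc3 at 6.74, 3.81 and 7.75 against 0.925, 0.394 and 0.734 FPKM (-2.04).

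Several other genes with large changes belong to none of these groups. Pmel, a structural protein of melanosomes that undifferentiated stem cells also express, was at 25.6, 27.9 and 26.7 in Ctrlv2 and 2.43, 2.77 and 3.07 FPKM in Arf-B (-2.89, SE 0.11, adjusted p = 4.15e-11). S100g, a calcium-binding protein gene, was at 6.35, 6.47 and 6.09 against 0.344, 0 and 0.645 FPKM (-2.49); of 13 S100 and annexin genes 8 were lower and 0 higher (1 higher without Arf-B replicate 3). Fam25c was at 1.27, 3.69 and 2.52 against 18.9, 22.4 and 29.3 FPKM (2.85). All 3 genes were separated between lines, which the naming rule asks for. The mitochondrial valine transfer RNA gene mt-Tv, 69 bases long, had 0, 0 and 1 reads in Ctrlv2 and 17, 15 and 32 in Arf-B, so its called rise rests on few reads from a class that polyA selection captures poorly. Of 8 measured replication-dependent histone genes 6 were higher and 0 lower (median 0.63), with Hist1h2bc at 2.3, 2.12 and 2.12 against 6.81, 7.35 and 6.74 FPKM (1.32).

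Several of the genes with the largest differences in mean FPKM were abundant genes with small log2 differences. Eef1a1, the elongation factor of translation, was at 6803, 7372 and 7219 FPKM in Ctrlv2 and 5861, 5890.0 and 5730.0 in Arf-B (-0.29, adjusted p = 0.00841). Mdk, a heparin-binding growth factor induced by retinoic acid, was at 1791, 1687 and 1732 against 1088, 1136 and 1041 FPKM (-0.67), although it had been higher in Arf-B on day 0 (0.47). Atp5a1, a subunit of the mitochondrial ATP synthase, was higher at 409.6, 407 and 395 against 248, 244 and 261 FPKM (0.69). Eef2 (-0.38) and Hsp90ab1 (-0.29) were lower, and Ptma, a nuclear acidic protein gene (0.40), and the mitochondrial gene mt-Nd2 (0.33) were higher. The calls for mt-Cytb (0.34) and mt-Nd1 (0.29) were lost without Ctrlv2 replicate 1 (adjusted p = 0.0667 and 0.074) or replicate 3 (0.0544 and 0.0609). That for mt-Nd1 was also lost without Arf-B replicate 2 (0.0512) or replicate 3 (0.0819). These genes had non-overlapping libraries because the naming rule asks for it; genes called higher with the libraries apart made up 16.8% of all members, and such genes called lower 18.3%.

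Cdkn2a was higher in Arf-B by a small difference, and genes of the p53 pathway moved in both directions. Gene counts do not separate p19Arf from p16Ink4a, which share exons of Cdkn2a. Cdkn2a (chromosome 4, 89274471 to 89294653, minus strand, mm10) was at 32.5, 32 and 34.3 FPKM in Ctrlv2 and 44.7, 43.2 and 40.1 in Arf-B. All Arf-B libraries were higher, but the called difference of 0.36 (SE 0.11, adjusted p = 0.0202) was lost without Ctrlv2 replicate 2 (adjusted p = 0.0612), Arf-B replicate 1 (0.0689) or Arf-B replicate 2 (0.0561), and with a pseudocount of 0.1 (0.0656). On day 0 it was at 2.72 ± 0.752 and 1.99 ± 0.269 FPKM, a difference of -0.30 (adjusted p = 0.0424) that was lost without Ctrlv2 replicate 1 (0.0509) or Arf-B replicate 1 (0.0501) or 2 (0.0528) of day 8, since all libraries share a variance model, and also without a filter (0.0869) and with voom on the recovered reads (0.0959). Of the neighbours, Cdkn2b, the p15Ink4b gene, overlapped at 3.31, 5.55 and 5.23 against 4.92, 4.33 and 3.92 FPKM (-0.06, adjusted p = 0.798). Mtap, an enzyme of methionine salvage, was higher by 0.27, a call lost without Ctrlv2 replicate 3 (0.18, adjusted p = 0.0679) or Arf-B replicate 3 (0.23, adjusted p = 0.0581).

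Trp53, which encodes p53, was at 38.6, 40.8 and 44.2 against 49.7, 51.6 and 53.4 FPKM (0.32, adjusted p = 0.00416), after a difference of the opposite sign on day 0 (-0.26). Mdm2, both a target and the ubiquitin ligase of p53, was lower at 43.1, 42.1 and 41.2 against 58.6, 62.4 and 55.3 FPKM (-0.47, adjusted p = 0.000574), and it too was of the opposite sign on day 0 (0.40). Cdkn1a, the p21 gene and a classic p53 target, was at 35.3, 41.3 and 39.6 against 27.3, 27.8 and 24.7 FPKM (-0.52, adjusted p = 0.00484). The 3 libraries of each line were apart for these 3 genes. Npm1, a nucleolar partner of p19Arf, overlapped (0.026, adjusted p = 0.883). Of 31 measured p53 targets 8 were higher and 4 lower (median 0.00, against 0.29 on day 0), and 13 higher and 3 lower with libraries set to the same sum. Sesn1, a stress-responsive regulator of mTORC1 (0.77), and the nuclease gene Aen (0.56) led the higher ones, and Tnfrsf10b, a death receptor gene (-1.27), led the lower ones from within the chromosome 14 segment.

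Genes of the 3 chromosome segments were mostly lower in Arf-B, with similar medians on both days. On chromosome 2 149 of 234 members were lower (63.7%) and 11 higher, on chromosome 14 109 of 135 were lower (80.7%) and 2 higher, and on chromosome 4 13 of 20 were lower (65.0%) and 3 higher. Outside the segments 17.6% were lower and 17.9% higher (35.5% in all). The segments were marked out with earlier results of these data known, so these shares describe them and test nothing. The median differences were -0.42, -0.82 and -0.62 on day 8 and -0.38, -0.78 and -0.48 on day 0, in that order, against 0.01 outside on day 8. Lower on both days were 103, 89 and 11 genes. The difference on day 8 departed from that on day 0 by the test for 77 of 234, 63 of 135 and 7 of 20 members, and for 5149 of the 14686 outside. Some genes lay far beyond the median of their segment. B2m, the light chain of MHC class I, in the chromosome 2 segment, was at 404, 456 and 449 FPKM in Ctrlv2 and 109.9, 112 and 109.5 in Arf-B (-1.97, adjusted p = 1.04e-09), against -0.39 on day 0. In the same segment Flrt3, an adhesion molecule gene (-1.77), Patl2, an oocyte RNA-binding protein gene (-1.69), and Ebf4, a helix-loop-helix factor gene (-1.46), were lower, with no difference called on day 0.

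In the chromosome 14 segment Stmn4, a neuronal tubulin-binding gene, was at 9.61, 11.6 and 10.3 FPKM in Ctrlv2 and 0.839, 0.758 and 0.67 in Arf-B (-2.71, adjusted p = 8.9e-11). Clu, a secreted chaperone, was at 241, 243 and 248 against 46.7, 47.8 and 41.2 FPKM, with nearly the same difference on day 8 (-2.41) as on day 0 (-2.49). Ctsb, cathepsin B, was at 253, 263 and 258 against 70.6, 66.9 and 62.1 FPKM (-1.94). Gata4, the endoderm and heart factor, was at 26, 23.1 and 26.1 against 6.44, 6.06 and 6.67 FPKM (-1.82) and was not called on day 0 (-0.078, adjusted p = 0.595). The 4 genes were apart between lines, as the naming rule asks. Tnfrsf19, a Wnt-responsive receptor gene picked as the strongest exception, was higher at 25.4, 24.3 and 26.5 against 7.6, 7.77 and 6.72 FPKM (1.66). In the chromosome 4 segment Leprot, an endosomal gene that shares its start with the leptin receptor gene, was at 69.2, 70.6 and 66.7 against 26, 26.5 and 25.4 FPKM (-1.37, against -1.30 on day 0). Jak1, the cytokine receptor kinase (-1.03), Ak4, a mitochondrial adenylate kinase gene (-1.01), and Mier1, a co-repressor gene (-0.97), were lower as well. Copy number was not measured, and its part in the segments was not tested.

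**Figure D4:**
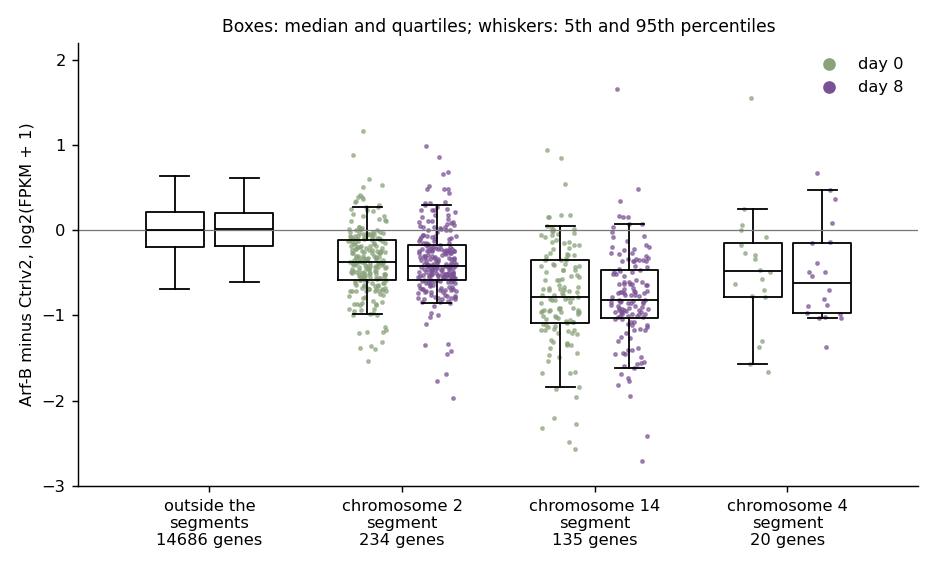
Arf-B minus Ctrlv2 differences on day 0 (green) and day 8 (purple) for the genes in each segment, 1 point per gene, and for the 14686 genes outside them, with boxes for the median and quartiles and whiskers from the 5th to the 95th percentile. The chromosome 14 segment sits lowest, with medians of -0.78 and -0.82, while the genes outside are centred on 0.

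Over all members, 6093 (40.4%) differed between the lines on day 0 (20.0% higher and 20.5% lower in Arf-B), and for 5296 (35.1%) the difference on day 8 departed from that on day 0 by the test of the interaction (17.8% upwards and 17.4% downwards). Of the 2641 genes higher on day 8, 696 were also called higher on day 0, which is 26.4% of the day 8 set and 23.1% of the day 0 set. A further 484 (18.3%) had been called lower on day 0 and 1461 (55.3%) had not been called. Of the 2855 genes lower on day 8, 1058 were also lower on day 0 (37.1% and 34.3% of the respective sets), 392 (13.7%) had been higher and 1405 (49.2%) had not been called. Among changes of at least 2-fold, 119 of 201 rises and 124 of 276 reductions were of genes not called on day 0. That share was close to the one over all members for the rises and below it for the reductions. Of the same sign on day 0 were 55 of these rises and 135 of these reductions. The plot of both days shows Nanog and Acta1 beside the vertical axis, with day 0 differences of 0.0043 and 0.10, and Rhox5, Clu and Esrp1 changed on both days.

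**Figure D5:**
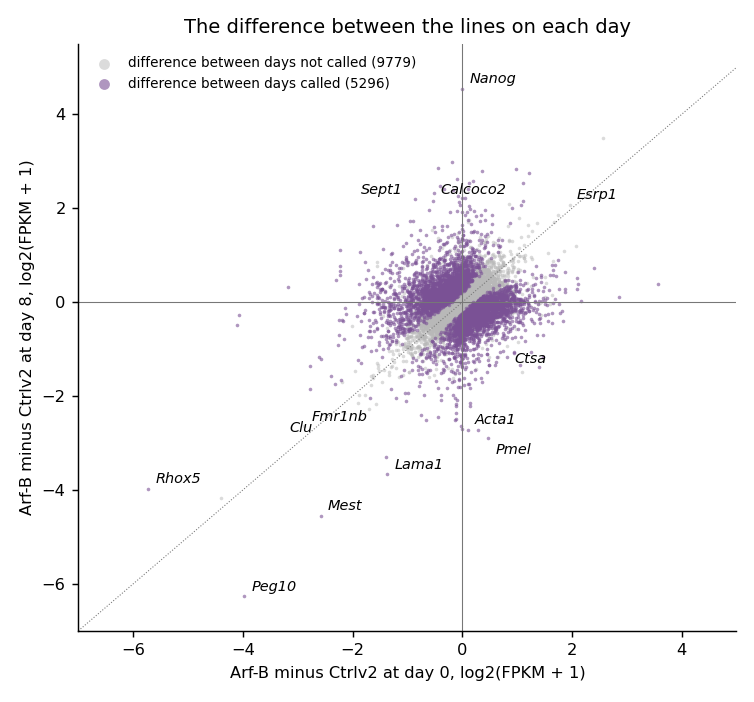
Each point is a member, with the Arf-B minus Ctrlv2 difference on day 0 on the horizontal axis and on day 8 on the vertical axis, in log2(FPKM + 1), the dotted line marking equal differences. Purple points are the 5296 genes whose differences departed between days by the test, and Peg10 is lowest on the day 8 axis at -6.26.

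The second line named for Arf, Arf-C, is set beside Arf-B for its levels on day 8; both share the same 3 Ctrlv2 libraries as control. Nanog was at 32.9 ± 12.9 FPKM in Arf-C (SD, n = 3), Lama1 at 4.82 ± 0.338, Hmox1 at 41.8 ± 11.6 and Hoxb1 at 72.5 ± 6.72. Called directly, 10 genes differed between Arf-B and Arf-C on day 8 (0.0663% of the members), 6 higher in Arf-B (0.0398%) and 4 lower (0.0265%), while 787 had an unadjusted p below 0.05. Peg10 was at 14.5 ± 1.45 FPKM in Arf-C, so Arf-B was lower by a difference of -1.54 (SE 0.10, adjusted p = 1.08e-06), and Mest was at 3.29 ± 0.346 (-0.87, adjusted p = 0.000498). Ubap2l, a stress granule protein gene, was lower in Arf-B (12.7, 13.2 and 13.5 FPKM) than in Ctrlv2 (21.9, 24.2 and 24) and stood at 21.7 ± 0.626 in Arf-C; its call between the Arf lines (adjusted p = 0.00575) was lost without Arf-B replicate 1 (0.0513). Lefty1, a Nodal antagonist, averaged 4.99 ± 1.59 FPKM in Arf-B, above both Ctrlv2 (2.28 ± 0.763) and Arf-C (1.17 ± 0.135), with a direct difference between the Arf lines of 1.43 (adjusted p = 0.00441; 0.0661 with voom on the recovered reads). Genes of the Y chromosome, Ddx3y and Uty, chosen after their values were seen, were also in this set: Ddx3y was at 19.4, 21 and 18.9 in Ctrlv2, 3.75, 3.42 and 4.48 in Arf-B and 0.24 ± 0.105 FPKM in Arf-C, and Uty at 6.01, 7.03 and 6.88, 2.39, 1.97 and 2.13 and 0.0462 ± 0.0379. The call of Ddx3y between the Arf lines was lost with voom on the recovered reads (adjusted p = 0.961).

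Arf-C libraries, which enter the Arf-B against Ctrlv2 tests through the shared variance model alone, also served to sort the members by a day response of their own. Between day 0 and day 8 of Arf-C 69.3% of the members changed, 36.0% upwards and 33.3% downwards. Over all members 17.5% were higher in Arf-B than in Ctrlv2 on day 8 and 18.9% lower. Of 189 members that fell at least 4-fold in Arf-C, 94 (49.7%) were higher and 35 (18.5%) lower, with a median of 0.40. The share lower was thus close to that over all members. Of 354 members that rose at least 4-fold, 112 (31.6%) were higher and 119 (33.6%) lower (median -0.02). Members that fell by less than 4-fold split into 866 higher and 867 lower of 4824, shares close to those over all members. Membership required 0.5 FPKM in at least 3 of the 6 day 8 libraries. Genes that fell strongly could therefore enter through the line where they stayed high, which adds calls in that direction. How far this raised the 49.7% was not tested.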

How the data were processed

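PolyA RNA from Trizol extracts was sequenced in 18 libraries (6 groups of 3). The authors deposited FPKM values for 54532 genes, and per the submitters' processing notes HISAT2, featureCounts, DESeq2 and mm10 were used, with no versions. All 413772 values above 0 are whole reads times a step per library (tolerance 0.001 reads), so read counts per gene were recovered. Gene positions match GENCODE vM21 for 53585 genes (98.26%).

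Values were taken as log2(FPKM + 1). The 17200 genes that reached 0.5 FPKM in 3 or more of the 18 libraries were fitted with limma 3.58.1 (R 4.3.3, statmod 1.5.0), 1 coefficient per group, with trended and robust empirical Bayes moderation (12 residual degrees of freedom). The Benjamini-Hochberg method adjusted the p-values over these genes, and calls were made below 0.05. Members were counted afterwards. Python 3.11.15, pandas 2.3.3, numpy 2.4.6 and matplotlib 3.10.9 made tables and plots. The fit was tested on simulated reads.

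The members and the gene lists were chosen with earlier results of these data known. A rule named genes: Cdkn2a, Cdkn2b, Trp53, Mdm2, Cdkn1a and Npm1, the 12 largest changes and the 6 largest differences in mean FPKM per direction outside the segments, 4 per segment, up to 4 called genes per list, 4 per direction called with the opposite sign on day 0 or also called between the Arf lines, and the cell type markers. Beyond the markers and lists these had to be called, reach 5 FPKM and have the 3 libraries of each line apart. The text says where a gene falls outside the rule, and some genes that the rule takes are not reported here. Alternatives were a pseudocount of 0.1, other filters, other scalings, the 6 libraries alone, a replicate block, voom on the recovered reads, thinned reads, and leaving out each library. Replicate numbers do not pair the libraries: deviations of same-numbered libraries correlated at 0.012, -0.007 and -0.010.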

Additional observations from a re-analysis of the deposited data

Results flagged for a closer look

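The difference between Arf-B and Ctrlv2 was called with opposite signs on the 2 days for 484 genes higher and 392 lower on day 8. The 7 given here were taken by the naming rule for the size of their day 8 difference, and their choice fixed that the test of the difference between days passes. Values are the day 8 difference minus the day 0 difference on the log2(FPKM + 1) scale. Sept1, a septin gene, changed by 3.05 (SE 0.25), from -0.86 to 2.19. Calcoco2, an autophagy receptor gene, changed by 2.68 (SE 0.25), and the glutamate receptor gene Grik3 by 1.99 (SE 0.18). The day 0 calls of Calcoco2 and Grik3 were lost when all genes were fitted without a filter (adjusted p = 0.0603 and 0.0638), and that of Grik3 also with libraries set to the same sum (0.0658). In the other direction Pmel changed by -3.36 (SE 0.15), from 0.47 to -2.89. The microfibril gene Mfap4 followed with -1.94 (SE 0.20), Ctsa with -2.0 (SE 0.11) and Sord, the sorbitol dehydrogenase gene of the chromosome 2 segment, with -1.93 (SE 0.14).

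Of the 10 genes that differed between Arf-B and Arf-C on day 8 by the direct test, the naming rule took 4, which also differed from Ctrlv2 in the same direction. Peg10 was lower in Arf-B than in Arf-C by a log2 difference of -1.54, Mest by -0.87 and Ubap2l by -0.68, the last without a call when Arf-B replicate 1 was left out (adjusted p = 0.0513). The linker histone gene Hist1h1c was higher by 0.60 (adjusted p = 0.0334). That call was lost without Ctrlv2 replicate 3 (0.0501), Arf-B replicate 1 (0.132) or Arf-B replicate 2 (0.232), and with the replicate block (0.0599).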

How the results depend on the processing

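The counts of genes called kept within 1.5 times of the reported ones under every alternative run, with these exceptions. With libraries set to the same sum, 4071 genes were higher and 1879 lower. Rises of at least 2-fold numbered 585 with a pseudocount of 0.1 and 582 with voom on the recovered reads, and reductions of that size 508 and 537. Without a filter, 26 genes were called between Arf-B and Arf-C on day 8. The replicate block gave 2587 higher and 2800 lower, 5201 genes called for the difference between days and 10 between the Arf lines. Leaving out each of the 6 libraries in turn gave 2158 to 2498 higher and 2344 to 2666 lower genes, 186 to 226 and 264 to 292 of at least 2-fold, 4690 to 5116 for the difference between days, 5922 to 6186 on day 0, 7 to 14 between the Arf lines and 263 to 277 in the segments. With reads thinned to the smallest library 2327 were higher and 2546 lower.

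Of 148 members named, 136 kept both their call and their sign under all alternatives run, although the filter at a mean of 1 FPKM held only 143 of them. Those that changed sign were never called and lay near 0. With libraries at the same sum Cdkn2b was at 0.041. Leaving out each library in turn gave -0.25 to 0.053 for Cdkn2b, -0.024 to 0.20 for Foxa2, -0.012 to 0.23 for Tbx3, -0.019 to 0.083 for Npm1 and -0.067 to 0.21 for Klf5. Cyp26a1 and Krt19 were not called with a pseudocount of 0.1 (adjusted p = 0.13 and 0.0945), nor was Mtap with the 6 libraries alone (0.0506). The cause of these changes was not tested. Voom on the recovered reads called 2265 genes higher and 2592 lower.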

Other observations

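Among 106 members of the homeobox family 39 (36.8%) were higher and 23 (21.7%) lower, against 17.5% and 18.9% of all members. The Hox genes given above, 19 of 29 higher and 4 lower, belong to this family, so its share repeats theirs in part. Counts of cell cycle and ribosomal protein genes depended on the scaling. Of 30 cell cycle genes 9 were higher and 5 lower (3 lower without Arf-B replicate 1 or 3, or without Ctrlv2 replicate 1 or 3), and 16 higher and 2 lower with libraries set to the same sum. Of the 5 lower cell cycle genes, 2 lie in the chromosome segments. Of 50 ribosomal protein genes 1 was higher and 10 lower (6 lower without Arf-B replicate 1 or 3, 5 without Ctrlv2 replicate 2), and 3 higher and 6 lower at the same sum.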
